A study of Homo sapiens with 4 samples.

Results

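Weak sequence motifs around 50 unmodified adenosines were exchanged for each of 3 strong ones, with the sequence from position 6 onwards otherwise kept. The strong motifs are GGACA, its counterpart GGACT (T stands for U throughout), and the motif GAACT. This gave 150 sequences, each carried by 3 oligonucleotides that differ in their tag, so that 450 of the 11999 oligonucleotides and 150 of the 3949 sequences of the library belong to the set. The members were taken from the permutated class by their bases at positions 49, 50, 51, 52 and 53, and no measured value entered the choice. Each context also has a weak original in the library, called its partner here, and all 50 partners belong to the class chosen around adenosines that were unmodified in HEK293T, a cell line from human embryonic kidney. The libraries were made from in vitro transcribed RNA incubated with the recombinant METTL3–METTL14 complex (methylated, 2 libraries) or without it (unmethylated, 2 libraries). No cells were present, and all libraries share the same transcripts and the same m6A antibody. Each count is a reverse transcription stop at a crosslink of that antibody, as in miCLIP2, placed on one of 141 positions of the oligonucleotide. The study's question was whether the complex alone sets which motifs are written.

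METTL3 is the catalytic subunit of the m6A writer and METTL14 helps it to hold the RNA. The complex methylates adenosine followed by cytidine, mostly within DRACH (D is A, G or T, R is A or G, H is A, C or T, in the same letters). GGACT and GGACA are known as favoured forms of this motif and TGAC and AAAC forms as poor ones. The antibody also binds some unmethylated RNA, so a stop in an unmethylated library measures background at that base.

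The exchange is shown whole for the context with the most counts, which lies at chr20:64070406 on the plus strand in TCEA2, a gene for a transcription elongation factor of the TFIIS family. Capitals mark the 5 bases that were exchanged, and the selected adenosine is the middle one, at position 51 counted from 1 at the 5′ end.
TCEA2 GGACA version: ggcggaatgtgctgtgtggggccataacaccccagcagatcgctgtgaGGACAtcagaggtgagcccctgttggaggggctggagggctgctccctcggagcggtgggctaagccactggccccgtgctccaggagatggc
TCEA2 GGACT version: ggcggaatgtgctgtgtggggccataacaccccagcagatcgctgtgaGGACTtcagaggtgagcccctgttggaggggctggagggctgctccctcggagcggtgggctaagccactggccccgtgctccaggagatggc
TCEA2 GAACT version: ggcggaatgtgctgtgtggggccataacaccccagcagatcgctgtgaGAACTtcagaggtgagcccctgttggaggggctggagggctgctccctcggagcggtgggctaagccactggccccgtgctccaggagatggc
TCEA2 partner: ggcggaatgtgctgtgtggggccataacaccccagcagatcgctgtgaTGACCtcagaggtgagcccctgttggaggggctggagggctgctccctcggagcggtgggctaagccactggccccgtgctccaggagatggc

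Written as partner base, position and version base, the GGACA version of TCEA2 differs from its partner by T49G and C53A, the GGACT version by T49G and C53T, and the GAACT version by T49G, G50A and C53T. The 50 weak motifs were TGACC in 17 contexts, TGACA in 15, AAACA in 8, AAACC in 6, TAACA in 2 and TAACC in 2. The other contexts with most counts at position 51 are shown from position 31 to 71 of the partner, with the weak motif in capitals, because these flanks set the frame in which each strong motif was read.
PAICS partner: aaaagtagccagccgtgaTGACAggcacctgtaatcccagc
DNPEP partner: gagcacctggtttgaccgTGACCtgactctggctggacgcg
VDAC2 partner: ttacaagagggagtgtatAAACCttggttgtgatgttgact
VARS1 partner: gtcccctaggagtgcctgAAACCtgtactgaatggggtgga
ECSIT partner: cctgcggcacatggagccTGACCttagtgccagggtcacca
FLNA partner: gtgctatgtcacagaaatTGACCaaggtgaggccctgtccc
Partner at chr16:371128: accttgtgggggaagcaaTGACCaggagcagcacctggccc
AHCY partner: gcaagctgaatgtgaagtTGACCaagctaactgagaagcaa
THOC3 partner: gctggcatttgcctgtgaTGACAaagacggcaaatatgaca

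These loci lie at chr4:56460838 on the plus strand (PAICS), chr2:219386317 on the minus strand (DNPEP), chr10:75220790 on the plus strand (VDAC2), chr6:31779803 on the minus strand (VARS1), chr19:11513084 on the minus strand (ECSIT), chrX:154350914 on the minus strand (FLNA), chr20:34281114 on the minus strand (AHCY) and chr5:175960042 on the minus strand (THOC3). The locus at chr16:371128 on the minus strand overlaps 2 genes and is left unnamed. The table names no genome build. Gene names came from the overlap with RefSeq genes of GRCh38.p14, and exon, intron and UTR positions were not used here.

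Version and partner were not always identical outside the motif. In 11 contexts, TCEA2, VARS1, ECSIT and THOC3 among them, they differed only at the motif. In the other 39 they also differed within positions 1 to 5, by 1 base in 18 contexts and by 2 to 5 bases in the rest, and were identical from position 6 to 48 and from 54 to 141. The first 20 bases show this for DNPEP and FLNA, with positions 1 to 5 in capitals.
DNPEP versions, 5′ end: GGGTGtggagacctatggtg
DNPEP partner, 5′ end: CGGTGtggagacctatggtg
FLNA versions, 5′ end: GGTGCacagcccctcaggag
FLNA partner, 5′ end: TATAGacagcccctcaggag
The change at DNPEP is C1G, and those at FLNA are T1G, A2G, A4G and G5C. All 50 contexts were used, and for the pooled and the paired comparison of versions with partners the values of the 11 contexts alone are also given.

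Strong motifs took up crosslinks at the selected adenosine in the methylated libraries. The weak originals in the same flanks, pooled, did so less than GGACA and GGACT. For GAACT the ratio to the originals overlapped between the groups, as given below. Pooled over the 50 contexts, the GGACA versions had 545 and 560 counts at position 51 in the methylated libraries, against 66 and 50 in the unmethylated ones. For GGACT these were 491 and 631 counts, against 73 and 84 in the unmethylated libraries. For GAACT the methylated libraries had 37.1 and 32.04 CPM (counts scaled to the library total), against 12.8 and 11.4 CPM in the unmethylated ones, where GGACA had 6.30 and 4.16 CPM. Every strong motif thus had more signal in both methylated libraries than in either unmethylated one, and GAACT had the highest unmethylated signal of the 3. The partners had 130 and 161 counts in the methylated libraries, against 65 and 49 in the unmethylated ones. Whole libraries held 13110615 and 13265092 counts in the methylated group and 10483825 and 12028474 in the unmethylated one.

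Set against all counts on the same oligonucleotides, the GGACA versions had 7.10 ± 0.231 counts per 1000 at the adenosine in the methylated libraries and 0.908 ± 0.199 in the unmethylated ones (SD, n = 2 each). The GGACT versions had 5.26 ± 0.829 and 0.896 ± 0.0260 per 1000, methylated and unmethylated. The GAACT versions had 5.66 ± 0.773 per 1000 in the methylated libraries and 2.05 ± 0.0298 in the unmethylated ones. GGACA and GGACT therefore shared a low unmethylated level, which was below that of GAACT in both libraries. The partners had 2.31 ± 0.192 per 1000 in the methylated libraries and 1.12 ± 0.231 in the unmethylated ones. In single libraries, the 95% Wilson intervals of the methylated GGACA level were 6.68 to 7.89 and 6.38 to 7.53 per 1000, and those of the unmethylated level 0.825 to 1.33 and 0.582 to 1.01. These and all other counting intervals cover counting error only.

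The excess of versions over partners was measured within each library, so that library scaling cancels. The log2 ratio of GGACA versions to partners was 2.07 and 1.80 in the methylated libraries, against 0.022 and 0.029 in the unmethylated ones, a change of 1.91 ± 0.19 (SD of the change). GGACT gave ratios of 1.92 and 1.97 in the methylated libraries and 0.17 and 0.78 in the unmethylated ones, a change of 1.47 ± 0.43. GAACT gave 1.90 and 1.40 in the methylated libraries and 1.04 and 1.48 in the unmethylated ones, a change of 0.39 ± 0.47. For GGACA and GGACT the groups did not overlap, with an exact permutation p of 0.333, and no smaller value is possible with 2 libraries against 2; for GAACT they overlapped (exact permutation p = 0.667). In the 11 contexts identical outside the motif the changes were 1.83 for GGACA, 1.29 for GGACT and 1.01 for GAACT, and no groups overlapped (exact permutation p = 0.333 each). Of the 307 and 327 methylated GGACA counts in these 11, TCEA2 held 266 and 243. Of the 75 and 120 methylated partner counts, VARS1 held 46 and 98. The GGACA ratio there thus rests largely on a version and a partner of different contexts. With each context weighted equally, and 0.5 added to every count, the changes were 1.11 for GGACA, 0.83 for GGACT and 0.47 for GAACT. Contexts without counts enter this mean as no change, and shallow ones are drawn towards it. The median context had 8 counts over partner, versions and libraries, so these values are not the change of a typical context. The labels do not say that the replicates were separate reactions, so p-values cover only the spread among these libraries, and that spread may be technical.

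One partner carried much of the weak signal. The AAACC original of VARS1, the gene of the cytosolic valyl-tRNA synthetase, held 37.5% of all partner counts at position 51. Without this context the other 49 partners had 84 and 63 counts in the methylated libraries and 60 and 46 in the unmethylated ones. Their levels were 1.55 and 1.06 per 1000 in the methylated libraries and 1.26 and 0.942 in the unmethylated ones, and these overlapped. Over the same 49 contexts the change of versions over partners was 2.705 for GGACA, 2.33 for GGACT and 1.18 for GAACT on the log2 scale. This context was left out after its values were seen, and leaving out the partner with the most methylated counts by itself raises the change, so these values are no independent support.

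The 3 strong motifs were also set against each other in the same flanks. The log2 ratio of GGACA to GAACT was 0.17 and 0.40 in the methylated libraries, against −1.02 and −1.45 in the unmethylated ones, a change of 1.52 ± 0.35. That of GGACT to GAACT was 0.015 and 0.57 in the methylated libraries and −0.88 and −0.71 in the unmethylated ones, a change of 1.08 ± 0.41. Neither pair of groups overlapped (exact permutation p = 0.333 each). In both comparisons the ratios were farther from 0 in the unmethylated libraries, where GAACT had more counts. GGACA and GGACT differed by 0.44 ± 0.48, with overlapping groups (exact permutation p = 0.667). With equal weight for each context and 0.5 added to every count, which again draws shallow contexts towards no change, GGACA over GAACT changed by 0.63 and GGACT over GAACT by 0.36.

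The high unmethylated level of GAACT lay partly in 1 context. PAICS, which encodes an enzyme of purine synthesis, had 98 and 90 counts in its GAACT version in the methylated libraries, against 66 and 42 in the unmethylated ones. Without it the GAACT versions had 388 and 335 counts in the methylated libraries and 68 and 95 in the unmethylated ones. These are levels of 5.69 and 4.57 per 1000 in the methylated libraries, against 1.18 and 1.65 in the unmethylated ones.

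The signal was at the adenosine itself. In CPM, the methylated over unmethylated ratio of all strong versions was 4.90 at position 51, and the next highest value within 10 nt on either side was 1.88, at position 50. The partners reached 2.15 at position 51. Versions over partners changed by 0.73 on the log2 scale at position 50, without overlap (exact permutation p = 0.333), and by 0.37 when the context with the most counts at that position was left out. At position 52 the change was −0.11 (exact permutation p = 0.667). At other DRACH adenosines, which version and partner share, the versions had 5864 and 5791 counts in the methylated libraries and 1834 and 1932 in the unmethylated ones. The partners had 1345 and 1213 there in the methylated libraries and 368 and 336 in the unmethylated ones, so both kinds had more methylated counts, and the change of versions over partners was −0.23 (exact permutation p = 0.333). Whole oligonucleotides held 258373 and 271751 counts for the versions in the methylated libraries and 212104 and 223129 in the unmethylated ones. Against the partners these totals changed by −0.0087 (exact permutation p = 0.667).

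The strong motifs in weak flanks were next set beside the same motifs in their natural flanks. Loci of the m6A class, which were methylated in HEK293T cells, had higher levels in both groups. GGACA loci of that class (251 sequences) had 16.5 ± 0.920 per 1000 in the methylated libraries and 4.22 ± 0.234 in the unmethylated ones (SD, n = 2 each). GGACT loci (610 sequences) had 13.8 ± 0.313 and 4.36 ± 0.270 per 1000, methylated and unmethylated. GAACT loci (209 sequences) had 12.7 ± 0.466 per 1000 in the methylated libraries and 7.77 ± 1.11 in the unmethylated ones. All 3 versions were thus below their natural counterparts in both groups. Their ratio of methylated to unmethylated was higher: the log2 change of versions over these loci was 1.01 for GGACA, 0.89 for GGACT and 0.75 for GAACT, without overlap (exact permutation p = 0.333 each).

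Against loci of the unmodified class with the same motif, the change was 1.19 for GGACA (94 loci) and for the motif GGACT it was 1.52 (40 loci), without overlap (exact permutation p = 0.333 each). For the 32 loci with GAACT it was 0.10, with overlap (exact permutation p = 1). The unmodified class had 10.02 ± 0.864 per 1000 in the methylated and 2.89 ± 0.416 in the unmethylated libraries at GGACA, and 5.75 ± 0.324 and 2.82 ± 0.239 at GGACT. The level at GAACT was 2.78 ± 0.0189 per 1000 in the methylated libraries and 1.11 ± 0.291 in the unmethylated ones. GGACT versions and GGACT loci of this class overlapped in their methylated level, whereas the versions were lower in the unmethylated libraries. Against the 50 natural GGACT originals of the reverse exchange, which had 11.04 ± 0.884 per 1000 in the methylated and 3.97 ± 0.815 in the unmethylated libraries, the change was 1.06 (exact permutation p = 0.333).

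Most versions were too shallow to be read one by one. Of the 150, 55 had no count at position 51 in any library, the median over the 4 libraries together was 1 count, and 31 had at least 20 counts. Of these 31, 26 were higher in both methylated libraries than in both unmethylated ones in CPM, and 0 were lower in both. Among the 50 partners, 21 had no count and 6 had at least 20, of which 2 were higher and 1 lower in this way. This count was not made over the other selected adenosines of the library, of which many also rose (42.3% of those tested below). Versions reach 20 counts largely through the methylated libraries, so the 26 are no share of all versions. Of the 4087 counts of versions and partners together, 4 contexts held 56.9% and 10 held 87.7%, and 5 contexts had none. The pooled values therefore describe a few contexts. A version or partner without counts was not detected at this depth, which says nothing on its methylation.

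All 142938 sites with enough counts were tested with edgeR (quasi-likelihood, Benjamini-Hochberg), and 24 of the 150 versions were among them (at least 10 in at least 2 libraries). Of these, 16 rose in the methylated libraries and 0 fell, where 42.3% of all tested selected adenosines of the library and 3.7% of all sites rose, and 0.25% and 2.01% fell. The 16 were 7 GGACA, 6 GGACT and 3 GAACT versions from 8 contexts. Versions passed the count filter largely through the methylated libraries, so this share is not one of all versions. Of the partners 3 were tested and 1 rose, the AAACC of VARS1. Without methylated replicate 1, 12 versions passed the count filter, and without methylated replicate 2, 14 did. Each of these fits leaves 1 methylated library. Fewer versions were called in them, and also fewer of all selected adenosines of the library. The VARS1 partner did not pass the count filter in either and was not tested there.

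TCEA2 rose with all 3 strong motifs. Its GGACA version had 266 and 243 counts in the methylated libraries, against 26 and 14 in the unmethylated ones (log2 fold change 3.40 ± 0.36 SE, edgeR adjusted p = 9.83e-07). In the GAACT version the methylated libraries had 7.78 and 6.48 CPM, against 0.954 and 0.914 CPM in the unmethylated ones (2.89 ± 0.40). The GGACT version had 70 and 83 counts, against 15 and 14 in the unmethylated libraries (2.13 ± 0.39). The groups were far apart in each version, with GGACA highest. The TGACC partner, which was the least abundant of the 4 sequences, had 10 and 9 counts in the methylated libraries and none in the unmethylated ones, at least 2.69-fold higher. Its totals over all positions were 1280 and 1431 counts in the methylated libraries and 939 and 731 in the unmethylated ones, against 8731 and 8962, and 6652 and 6665, for the GGACA version. Per 1000 counts the weak TGACC thus had 7.81 and 6.29 in the methylated libraries, below the 30.5 and 27.1 of GGACA.

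VDAC2, a gene of a channel of the outer mitochondrial membrane, also rose with all 3. Its GGACT version had 69 and 59 counts in the methylated libraries, against 1 and 0 in the unmethylated ones (log2 fold change 6.45 ± 0.73 SE, edgeR adjusted p = 2.56e-06). GAACT had 11.1 and 7.92 CPM, against 0.286 and 0.831 CPM in the unmethylated libraries (3.997 ± 0.458). The GGACA version had 15 and 14 counts and none in the unmethylated libraries, at least 4.11-fold higher (edgeR adjusted p = 0.00398). The AAACC partner had 8 and 5 counts in the methylated libraries and 2 and 3 in the unmethylated ones, a depth-scaled ratio of 2.22 (95% counting interval 0.742 to 7.95). The interval of the partner includes a ratio of 1, and the GGACT version held 2484 and 2581 counts over all positions in the methylated libraries, against 562 and 692 for the partner.

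VARS1 had the 1 weak original that rose in the test. Its AAACC partner had 46 and 98 counts in the methylated libraries, against 5 and 3 in the unmethylated ones (log2 fold change 3.86 ± 0.54 SE, edgeR adjusted p = 4.38e-05). The strong versions rose too, with 22 and 56 counts for GGACA against 0 and 1 in the unmethylated libraries (5.73 ± 0.87), and 28 and 50 for GAACT against 2 and 4 (3.39 ± 0.60). GGACT had 15 and 17 counts, against 0 and 1 in the unmethylated libraries (4.46 ± 1.01). Methylated replicate 2 was above replicate 1 in all 4 sequences. With sequence totals as offset, the GGACT and the GAACT of VARS1 were no longer called (edgeR adjusted p = 0.0990 and 0.0520). The context has no difference outside the motif, and its GGACA version and partner were about equally deep in the methylated libraries, with 5703 and 5732 counts over all positions for the version and 5653 and 6557 for the partner.

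FLNA, which encodes the actin crosslinker filamin A, rose with both GGAC motifs. Its GGACA version had 65 and 47 counts in the methylated libraries, against 3 and 5 in the unmethylated ones (log2 fold change 3.52 ± 0.52 SE), and its GGACT version 51 and 58, against 8 and 11 (2.25 ± 0.44). The GAACT version, below the count filter, had 9 and 9 counts, against 3 and 3 in the unmethylated libraries. The TGACC partner had 11 and 8, against 2 and 2 in the unmethylated libraries, a ratio of 4.05 (95% counting interval 1.35 to 16.4). Over all positions this partner held 677 and 866 counts in the methylated libraries, against 2666 and 2852 for the GGACT version. Per 1000 counts it had 16.2 and 9.24 there, against 19.1 and 20.3 for GGACT. Against the partner, GGACA changed by 1.58 ± 0.79 (log2 difference ± SE), GGACT by 0.32 ± 0.87 and GAACT by −0.63 ± 0.84, and none passed the threshold. The call at GGACT was lost without methylated replicate 2 (edgeR adjusted p = 0.057).

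DNPEP, the gene of an aspartyl aminopeptidase, likewise rose with both GGAC motifs. The version ending in T had 6.25 and 8.97 CPM in the methylated libraries, against 1.62 and 1.33 CPM in the unmethylated ones (log2 fold change 2.33 ± 0.38 SE, edgeR adjusted p = 0.000289). The version ending in A had 49 and 46 counts, against 0 and 11 in the unmethylated libraries (2.84 ± 0.62); this call was lost without methylated replicate 2 (edgeR adjusted p = 0.0915) and in DESeq2 (adjusted p = 0.641). With GAACT the groups were close, at 32 and 24 counts, against 20 and 20 in the unmethylated libraries (0.23 ± 0.44, edgeR adjusted p = 0.85). The partner had 11 and 4 counts in the methylated libraries and 2 and 4 in the unmethylated ones.

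ECSIT, known for an adaptor in Toll signalling and for assembly of mitochondrial complex I, rose with 1 motif. Its GGACT version had 8.24 and 14.1 CPM in the methylated libraries, against 0.668 and 0.998 CPM in the unmethylated ones (log2 fold change 3.68 ± 0.42 SE, edgeR adjusted p = 2.60e-06). GAACT had 2 and 6 counts, against 4 and 2 in the unmethylated libraries, and the TGACC partner had 1 count in all. GGACA had 2 and 13 counts in the methylated libraries and none in the unmethylated ones, too few to be tested.

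AHCY, which encodes the enzyme that clears the by-product of methyl transfer, rose with GGACA. That version had 14 and 21 counts in the methylated libraries, against 0 and 1 in the unmethylated ones (log2 fold change 4.58 ± 0.99 SE, edgeR adjusted p = 0.0053). GGACT had 11 and 9 counts, against 2 and 0 in the unmethylated libraries, and GAACT 12 and 2, against 9 and 9. The partner had 2 and 1 counts in the methylated libraries and 5 and 0 in the unmethylated ones. GGACA and GGACT had groups that did not overlap, and those of GAACT overlapped.

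Of the 10 contexts, 3 had no version that passed the test. PAICS had 29 and 25 counts with GGACA in the methylated libraries, against 13 and 4 in the unmethylated ones (log2 fold change 1.39 ± 0.55 SE, edgeR adjusted p = 0.162). Its GGACT version had 18 and 27 counts, against 11 and 4 in the unmethylated libraries, and its TGACA partner 10 and 15, against 17 and 3. The GAACT version changed by 0.53 ± 0.34 (edgeR adjusted p = 0.435). Over all positions the PAICS versions held 6632 to 10114 counts in the methylated libraries, against 4902 to 8962 in TCEA2. The PAICS partner held only 741 and 631 there. Per 1000 counts it had 13.5 and 23.8 in the methylated libraries and 27.5 and 4.35 in the unmethylated ones. Its methylated level was above those of GGACA (3.67 and 3.77), GGACT (1.79 and 3.14) and GAACT (9.69 and 9.23). The context at chr16:371128 had the highest total of all named sequences, with 23112 and 22825 counts over its GGACT version in the methylated libraries, yet only 13 and 13 at position 51, against 1 and 3 in the unmethylated libraries (2.38 ± 0.81, edgeR adjusted p = 0.0919). THOC3, a gene of the THO complex of messenger RNA export, had 11 and 12 counts with GGACA in the methylated libraries, against 4 and 4 in the unmethylated ones (1.24 ± 0.72, edgeR adjusted p = 0.379). The whole THOC3 GGACA sequence had 814 and 850 counts in the methylated libraries, against 1513 and 1518 in the unmethylated ones, and its partner 3 and 3 counts at position 51, against 8 and 12.

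The next contexts in order of counts show where the named ones end, with 68 counts in the tenth and 61 in the eleventh. The eleventh was EIF4G2, a gene of a translation initiation factor, named here after its values were seen. Its GGACA version had 18 and 40 counts in the methylated libraries and none in the unmethylated ones, at least 8.19-fold higher (edgeR adjusted p = 0.000208). Its AAACA partner had no count in any library, and the GGACT and GAACT versions had 3 counts between them. The totals of these sequences were low and unequal, 860 and 945 counts in the methylated libraries for GGACA, against 87 and 93 for the partner. Over all libraries, the 8 contexts with an AAACA original had 2 counts with GGACT, 3 with GAACT and 1 with the original.

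Grouped by the weak motif that was replaced, TGACC originals had 54 and 35 counts in the methylated libraries and 25 and 21 in the unmethylated ones, a CPM ratio of 1.64. In those 17 contexts GGACA reached a ratio of 8.51, GGACT 6.08 and GAACT 2.35. In the 15 contexts with TGACA originals the ratios were 2.98 for GGACA, 3.81 for GGACT and 1.52 for GAACT, against 0.718 for the originals. In the 6 contexts with AAACC originals GGACA had 38 and 71 counts in the methylated libraries, against 0 and 1 in the unmethylated ones, and the ratios were 9.16 for GGACT and 12.3 for GAACT, against 8.39 for the originals, of which VARS1 held most counts. Among the 3 strong motifs, GAACT had the lowest of these pooled ratios where TGAC had been replaced, with no test of the difference. Within the AAACC contexts VDAC2 and VARS1, GGACT had a larger log2 fold change than GAACT (given for each above). That of GGACA was larger still, at 6.75 ± 1.40 SE in VDAC2, without an unmethylated count, and as given above in VARS1. Tested against each other in edgeR, no 2 of these versions differed past the threshold. GGACT over GAACT was 2.44 ± 1.21 (log2 difference ± SE, edgeR adjusted p = 0.347) in VDAC2 and 1.13 ± 1.45 (edgeR adjusted p = 0.772) in VARS1. GGACA over GGACT was 0.29 ± 0.51 in VDAC2 and 1.17 ± 2.44 in VARS1. The order of the motifs in these 2 contexts is thus not settled. USP11, named here after its values were seen, held 8 and 6 methylated and 4 and 11 unmethylated counts of GGACT.

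The change of each version was then tested against that of its own partner, as an interaction in edgeR. Of 150 pairs, 38 from 17 contexts had at least 20 counts and were tested, and 0 passed the threshold, as did 0% of all 156 such pairs of the permutated class in either direction. DESeq2 also called 0 of the 38, where 3 of all 156 pairs were higher and 2 lower. Of the 13 tested pairs from contexts identical outside the motif 0 passed in edgeR. At an unadjusted p under 0.05 there were 6 higher and 1 lower, where 9 of all 156 pairs were higher and 24 lower. The smallest adjusted p was 0.1103, for the GGACA version of THOC3 (log2 difference 3.18 ± 0.70 SE) and the GGACT version of VDAC2 (5.37 ± 1.21). At THOC3 the partner had fewer counts in both methylated libraries than in either unmethylated one. The lower one was the GGACT version of TCEA2, whose partner had no unmethylated count, so that its fitted difference is no measure of size. In 2 pairs, EIF4G2 GGACA among them, the fit gave no standard error. With the total of each sequence as offset 3 pairs were called, GGACA of THOC3, GGACA of AHCY and GGACT of VDAC2 (edgeR adjusted p = 0.0326, 0.0326 and 0.00939), where 6 of all 156 pairs were higher and 9 lower.

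Between 2 strong motifs in the same context, 40 pairs from 16 contexts were tested in the same way, and 4 were higher and 0 lower, where 5.33% of all 225 such pairs were higher and 1.33% lower. All 4 set a GGAC motif above GAACT. At AHCY, GGACA changed by 5.35 ± 1.47 (log2 difference ± SE) more than GAACT (edgeR adjusted p = 0.00845). At DNPEP, GGACA and GGACT changed by 2.78 ± 0.83 and 2.10 ± 0.64 more than GAACT (edgeR adjusted p = 0.0214 and 0.0255). At ECSIT, GGACT changed by 3.57 ± 1.10 more (edgeR adjusted p = 0.0255). The AHCY value and the GGACA value of DNPEP each rest on an unmethylated library without counts for the GGACA version. DESeq2 called 5 pairs, where 10 of all 225 pairs were higher and 3 lower. With sequence totals as offset 0 were called (8 at an unadjusted p under 0.05), where 3 of all 225 were higher and 1 lower. Fewer pairs were called with any single library left out than with all 4 libraries.

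The 3 tags of a sequence, numbered in the order of their oligonucleotide IDs, did not share the signal evenly. Over all contexts, GGACA with tag 3 had 254 and 292 counts in the methylated libraries and 16 and 17 in the unmethylated ones, a CPM ratio of 14.1, against 7.07 with tag 1 and 4.48 with tag 2. GGACT gave 7.34, 5.10 and 5.95 with tags 1, 2 and 3, and the partners 2.24, 2.48 and 1.75. GAACT gave 1.35, 3.61 and 3.74, and against partners with tag 1 its change was −0.73 on the log2 scale. GGACA with tag 2 changed less than GGACT (−0.16), so the order of these 2 turned with the tag. In VDAC2 the GAACT version had 43 and 24 methylated counts on tag 2 and 0 and 0 on tag 1, and in TCEA2 the GGACA version had 167 and 150 methylated counts on tag 3 and 25 and 39 on tag 2. Tags share the 4 libraries and are not replicates of a condition.

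The exchange changed other features of the RNA. The predicted probability that the adenosine is unpaired had a median of 0.303 in GGACA, 0.341 in GGACT and 0.686 in GAACT versions, against 0.622 in the partners. It was higher than in the partner by over 0.1 in 47 versions and lower by over 0.1 in 61. The 16 versions that rose spanned 0.00785 to 0.981 with a median of 0.485, while the 8 that were tested and not called lay between 0.624 and 0.995. Among these, VDAC2 GGACT had 0.0192 and TCEA2 GGACA 0.964, so versions that rose included both paired and open adenosines. PAICS GAACT, with its small change, had 0.993. The GC content had a median of 51.1% in the versions and 50.4% in the partners, against 57.4% in the m6A class and 56.03% in the unmodified class. Before the motif, at position 48, 19 contexts had C, 18 A, 7 T and 6 G, and after it, at position 54, 16 had T, 14 A, 12 G and 8 C. Each version held 0 to 6 other DRACH motifs, with a median of 2. The part of these features in the counts was not tested.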

How the data were processed

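Per the file headers, the deposited values are raw counts for each position of each oligonucleotide. FastQC 0.11.8, STAR 2.7.3a and bedtools 2.27.1 were used, per the submitters' processing notes. The step of each tool, any removal of duplicates and the build: not given in the sources used here. Library groups follow the labels, and member totals per library ranged from 212104 to 271751 counts.

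Counts of the 3 tags of a sequence were summed. Sites (at least 10 counts in at least 2 libraries) went into edgeR 4.0.16 (quasi-likelihood, TMM scaling; limma 3.58.1, R 4.3.3). Pairs (at least 20 counts over both sequences) were tested there by the interaction of sequence and methylation with library as a term. P-values are two-sided, with Benjamini-Hochberg adjustment over all sites or pairs and a threshold of 0.05. Pooled log2 ratios had an exact permutation test over the 4 libraries. Fold bounds set groups without counts at 3 counts per library. Pairing was predicted on the 141 nt without tag and linker with ViennaRNA 2.7.2; DESeq2 1.42.0, Python 3.11.15, pandas 2.3.3, numpy 2.4.6 and scipy 1.17.1 were also used. The fits were also run on simulated counts. The simulated pairs were deeper than the real ones, so they do not show how the pair fit behaves at the observed depth. A gene overlapped 98.7% of 3488 loci, against 66.0% to 72.2% after shifts of 50000 or 500000 nt.

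The members, tests and alternatives were chosen with earlier results of these data known. Named contexts are the 10 with the most counts at position 51 over partner, versions and libraries, irrespective of direction; pairs past the threshold of the version-to-partner fit were to be added, and there were none. The added alternatives were the 11 contexts with identical 5′ ends, leaving out the context with the largest partner or the 4 largest contexts, positions 41 to 61 and grouping by weak motif.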

Additional observations from a re-analysis of the deposited data

Results flagged for a closer look

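In 4 pairs of strong motifs that share a context, the change on methylation differed between the motifs by the interaction test in edgeR, with 2 libraries a group. In AHCY the log2 change of GGACA exceeded that of GAACT by 5.35. In DNPEP that of GGACA exceeded GAACT by 2.78 and that of GGACT exceeded GAACT by 2.10. In ECSIT that of GGACT exceeded GAACT by 3.57. Unmethylated counts behind these values were 0 and 1 for GGACA, against 9 and 9 for GAACT, in AHCY, and 7 and 12 for GGACT, against 4 and 2 for GAACT, in ECSIT. Of the 4 calls, 0 held with sequence totals as offset or without methylated replicate 1, methylated replicate 2 or unmethylated replicate 1, and 2 held without unmethylated replicate 2. With single libraries left out the GGACA value ranged from 4.13 to 7.78 in AHCY and from 1.62 to 8.32 in DNPEP. What sets these contexts apart was not tested.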

How the results depend on the processing

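Changes of versions over partners (log2) were, for all versions, 0.82 with tag 2 alone, 1.68 with tag 3 alone and 1.99 without VARS1. For GGACA they were 1.71 without TCEA2, 1.11 with equal weights, 0.88 and 2.90 with tags 2 and 3 alone and 2.705 without VARS1. For GGACT they were 0.83 with equal weights, 1.04 with tag 2 alone and 2.33 without VARS1. For GAACT they were −0.73 and 1.00 with tags 1 and 3 alone, 1.01 in the 11 contexts with identical 5′ ends and 1.18 without VARS1. GGACA over GGACT was −0.16 and 1.26 with tags 2 and 3 alone. GGACA over GAACT was 0.63 with equal weights and 2.48, 0.33 and 1.90 with tags 1, 2 and 3, and GGACT over GAACT 0.36 with equal weights and 2.44, 0.49 and 0.64 with the tags. Position 50 gave 0.37 without its context with most counts. With single libraries left out, position 52 ranged from −0.31 to 0.086 (0.086 without methylated replicate 1, 0.021 without unmethylated replicate 1), the whole oligonucleotide from −0.042 to 0.024 and, without the context with most counts, gave 0.033, and GAACT over unmodified loci ranged from −0.18 to 0.39 (−0.043 without methylated replicate 1). Without the context with most counts, GGACA over unmodified loci was 0.91 and GAACT over m6A loci 1.16. Version calls ranged from 6 to 17 over single libraries left out and were 8 with at least 50 counts, where fewer sites were tested. Partner calls were 2 without a filter and 0 with at least 50 counts, where 0 partners were tested. With tags kept apart there were 3 calls, which were the 3 tags of the 1 VARS1 partner. Pair calls of versions over partners were 1 with a replicate block, where 4 of all 156 pairs were higher and 4 lower. They were 3 with sequence totals as offset, where 6 of all 156 were higher and 9 lower. Without a filter they were 3, where 6 of all 330 were higher and 9 lower. With at least 100 counts they were 2, where 5 of all 62 were higher and 11 lower. Calls between versions were 0 with totals as offset, where 3 of all 225 pairs were higher and 1 lower. Same-numbered libraries gave no sign of deviating together (r = −0.0741 over 142938 sites). This cannot exclude a pairing, which counting noise at shallow sites could hide. With the replicate block 16 of the 24 versions were called, where 519 of 1200 selected adenosines rose. In a balanced design the block cannot move the pooled changes, so GGACA over partners was again 1.91 by construction. The cause of these shifts was not tested. Depth at position 51 limits every single-context value.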
